A study of Rattus norvegicus with 10 samples.

Results

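The aminoacyl-tRNA synthetases are the enzymes that join each amino acid to its transfer RNA before protein synthesis. Their transcripts were compared between hearts of old and young rats. The set was chosen by name, from a list of 35 nuclear genes, 19 of the cytosolic enzymes (symbols ending in 1, with Farsa and Farsb) and 16 of the mitochondrial enzymes (symbols ending in 2). A gene counted as measured where at least 1 probe set of the array carried its symbol and no other, and its value was the mean of those probe sets. On this rule 32 of the 35 genes were measured, among 14217 named genes on the array. All 19 cytosolic genes and 13 of the 16 mitochondrial genes were included, through 50 of the 31042 probe sets.

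The Old group held hearts of male Fischer-344 rats at 24 months of age (5 arrays) and the Young group hearts of male Fischer-344 rats at 6 months (5 arrays). Fischer-344 is an inbred strain used widely in research on aging. Both groups were fed standard chow, and the labels name no allele, transgene or drug for either. The study profiled these hearts on the Affymetrix expression array for the rat genome to follow genes of mitochondrial metabolism with age. The sample protocols describe whole hearts and the series text describes ventricles, so the labels do not settle whether atria were included. They also do not state that each array came from a separate rat, so the spread behind each p-value is that of these samples and may be technical.

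Each synthetase recognises its amino acid and the matching tRNAs, and uses ATP to couple them. The cytosolic set serves the ribosomes that translate nuclear genes. The mitochondrial set is also encoded in the nucleus, is imported into the organelle and charges the tRNAs that mitochondrial DNA encodes, which are used to build a few subunits of the respiratory chain. Heart muscle depends heavily on that chain, and loss of AARS2 function is known from a cardiomyopathy of infancy in humans. Kars1 and Gars1 encode both a cytosolic and a mitochondrial form, and were counted here with the cytosolic set by their symbols. Several cytosolic enzymes are bound in a multi-synthetase complex on the scaffold proteins Aimp1, Aimp2 and Eef1e1.

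All values are on the log2 scale, relative to the median of the 10 arrays for each probe set, which sets arrays against each other and keeps no absolute level. The log base was inferred from the values. A gene is said to have risen or fallen where limma's moderated test gave a Benjamini-Hochberg adjusted p under 0.05 over all 14217 genes. By that rule 1686 genes (11.9%) differed between the ages, 724 (5.09%) fell in Old and 962 (6.77%) rose, and the median difference over all genes was -0.0050. Array medians over all probe sets lay between -0.0097 and 0.0038 in Old and between -0.0061 and 0.0093 in Young. In hearts taken whole, fewer cells of a type and less RNA per cell cannot be told apart.

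Among the mitochondrial synthetases, the transcripts of Hars2 and Iars2, which charge the histidine and isoleucine tRNAs, fell in Old hearts, by changes of -15.7% and -15.4% against Young. Among the cytosolic synthetases only Qars1, the glutaminyl enzyme, passed the test, and it fell too. None of the 32 measured genes rose. The 3 calls were 9.38% of the 32 genes, against 11.9% of all genes, so the share of members called was no higher than the background. A lower mean in Old was found in 27 of the 32 members, against 51.8% of all genes.

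By compartment, all 13 measured mitochondrial genes had a lower mean in Old, with a median difference of -0.13, which is a level -8.55% from that in Young. Of the 19 cytosolic genes, 14 had a lower mean, with a median difference of -0.046, or -3.14%. Calls were 2 of 13 mitochondrial genes (15.4%) and 1 of 19 cytosolic genes (5.26%), where 5.09% of all genes fell. At an unadjusted p under 0.05, 7 mitochondrial genes were lower and 0 higher, while 4 cytosolic genes were lower and 3 higher. Over all 14217 genes, 1706 were lower and 2032 higher by that measure. The genes share arrays, so these counts are descriptions and carry no test of their own.

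**Figure D1:**
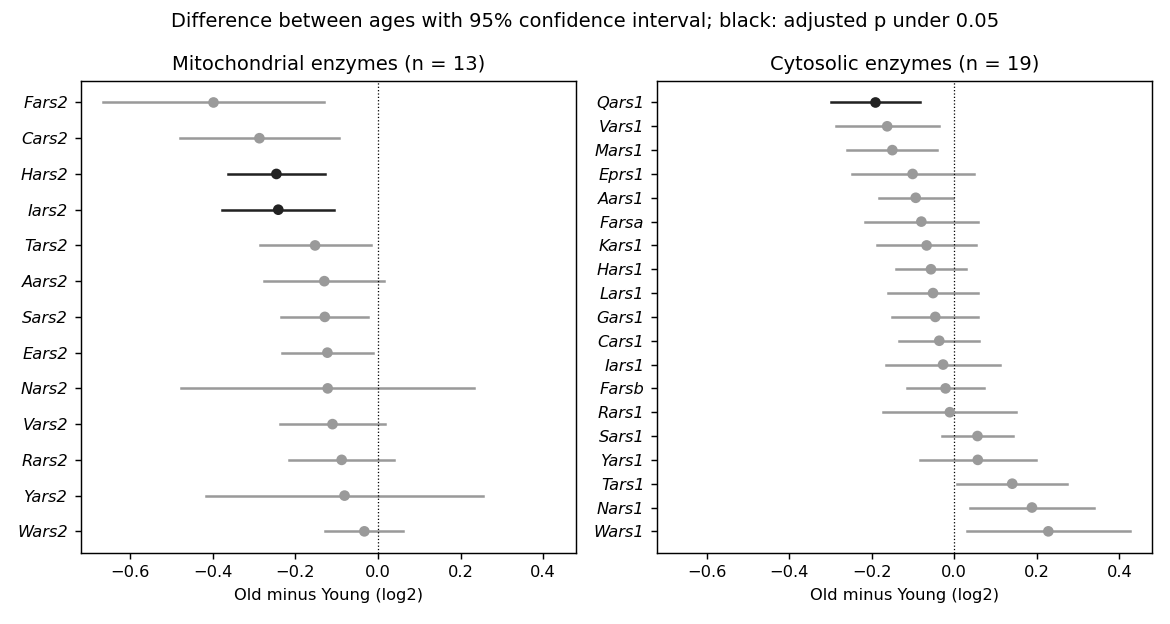
Difference between ages, Old minus Young on the log2 scale, for each measured mitochondrial (left) and cytosolic (right) synthetase, with bars for the 95% confidence interval of the limma fit. Black marks the 3 genes with adjusted p under 0.05, and all 13 mitochondrial points lie left of 0 while 5 of the 19 cytosolic points lie right of it.

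Hars2 had the smallest p of the family. Its log2 values were -0.053, -0.13, -0.092, -0.13 and -0.14 on Old replicates 2, 3, 4, 5 and 6, against 0.30, 0.085, 0.17, 0.087 and 0.039 on Young replicates 1, 2, 3, 4 and 6. Every Old array lay below every Young array. The mean difference was -0.25 ± 0.054 (SE) with adjusted p = 0.0130, a change of -15.7% with a 95% interval of -22.3% to -8.52%. Both of its probe sets passed the test over probe sets on their own, at -0.29 (adjusted p = 0.0312) and -0.20 (adjusted p = 0.0287). The call held when any 1 of the 10 arrays was left out, with adjusted p between 0.0135 and 0.0381.

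Iars2 is the isoleucyl enzyme of the mitochondrion. Its values were -0.039, -0.32, -0.015, -0.10 and -0.086 in Old, against 0.12, 0.14, 0.21, 0.015 and 0.17 in Young, in the same order of replicates as for Hars2. The groups did not overlap, although the highest Old and the lowest Young array were close, and Old replicate 3 stood lowest. It fell by 0.24 on the log2 scale (SE 0.062, adjusted p = 0.0268), a change of -15.4% with a 95% interval of -23.0% to -7.08%. The call was lost without Old replicate 5 or 6 or Young replicate 2, 3 or 6, where the adjusted p lay between 0.05005 and 0.0712.

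Fars2, the mitochondrial phenylalanyl enzyme, showed the widest mean difference of the 32 genes without passing the test. It had -0.033, -0.81, -0.085, -0.27 and -0.18 in Old, against 0.18, 0.033, 0.24, 0.039 and 0.12 in Young. The groups did not overlap, and Old replicate 3 lay far below the other Old arrays. The difference was -0.40 ± 0.12 (SE), or -24.1%, with adjusted p = 0.0544. It passed when Old replicate 2, 3 or 4 was left out, with adjusted p between 0.0211 and 0.0488, and without Old replicate 3 the difference was -0.26.

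Cars2, which charges the mitochondrial cysteine tRNA, had 0.13, -0.37, -0.25, -0.26 and -0.33 in Old, against 0.083, 0.028, -0.028, 0.047 and 0.23 in Young. Old replicate 2 was above 4 of the 5 Young arrays, and the other Old arrays were below all 5. The difference of -0.29 ± 0.089 (SE) had adjusted p = 0.0544. Without Old replicate 2 it was -0.37 with adjusted p = 0.00283, a call.

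The remaining 9 mitochondrial genes did not pass the test, and their differences lay between -0.15 and -0.033. The threonyl enzyme Tars2 differed by -0.15, the alanyl enzyme Aars2 by -0.13 and the seryl enzyme Sars2 by -0.13, with adjusted p of 0.136, 0.245 and 0.109. Ears2 is the glutamyl enzyme, which in mitochondria also loads glutamate onto the glutamine tRNA, and it differed by -0.12 (adjusted p = 0.143). The valyl enzyme Vars2 differed by -0.11 and the arginyl enzyme Rars2 by -0.088. The tryptophanyl enzyme Wars2 differed by -0.033, with an interval from -0.13 to 0.062.

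Nars2 and Yars2, the asparaginyl and tyrosyl enzymes, were the noisiest members. Nars2 ranged from -0.25 to 0.36 in Old and from -0.096 to 0.83 in Young, and its difference of -0.12 ± 0.16 (SE) turned to 0.048 without Young replicate 4. Yars2 ranged from -0.76 to 0.26 in Old and from -0.20 to 0.13 in Young, and its difference of -0.081 ± 0.15 (SE) turned to 0.083 without Old replicate 3. The statement that all 13 means were lower thus rests, for each of these genes, on 1 array.

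Lars2, Mars2 and Pars2, of the leucyl, methionyl and prolyl enzymes, had no probe set that met the rule and were not analysed here as members. One probe set lists Mars2 under more than 1 gene identifier. It differed by 0.031 ± 0.066 (SE, adjusted p over probe sets 0.847), so it lay on the other side of 0 from the 13 measured genes.

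**Figure D2:**
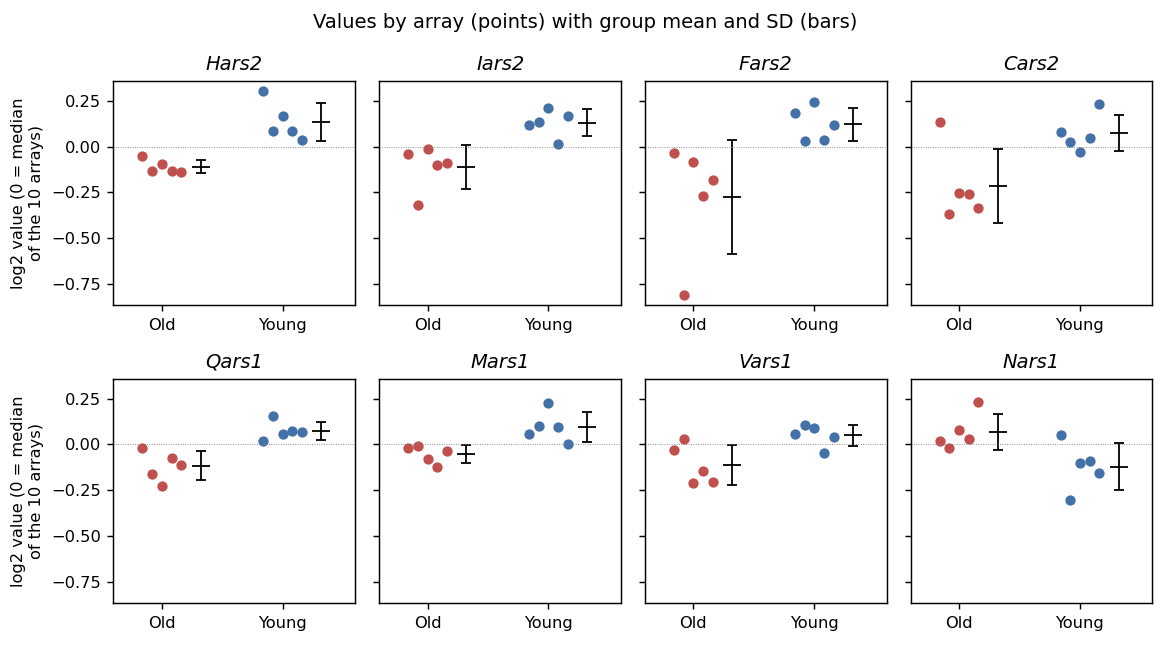
Log2 value on each array, relative to the median of the 10 arrays, for the 4 mitochondrial (top) and 4 cytosolic (bottom) synthetases with the smallest p. Old points (left, red) and Young points (right, blue) stand beside the group mean and SD (bars, n = 5 each), and they do not overlap for Hars2, Iars2, Fars2, Qars1 and Mars1.

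Among the cytosolic enzymes, the 7 that are held in the multi-synthetase complex all had a lower mean in Old, with a median difference of -0.067, against 7 of 12 outside it, with a median of -0.029. Qars1, a complex member that charges glutamine tRNA in the cytosol, had -0.018, -0.16, -0.23, -0.072 and -0.11 in Old, against 0.018, 0.15, 0.055, 0.073 and 0.070 in Young. Its highest Old value was below its lowest Young value. It fell by 0.19 on the log2 scale (SE 0.050, adjusted p = 0.0277), a change of -12.4% with a 95% interval of -18.7% to -5.56%. The call was lost without Old replicate 4 or 6 or Young replicate 2, 3 or 6, with adjusted p between 0.0522 and 0.0702.

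Mars1 charges the methionine tRNAs, including the initiator, and is also part of the complex. Its values were -0.018, -0.010, -0.081, -0.13 and -0.033 in Old, against 0.059, 0.10, 0.23, 0.093 and 0.0019 in Young, again without overlap. The difference was -0.15 ± 0.050 (SE) with adjusted p = 0.0735, so it was not called. The other complex members differed less. Eprs1, a fused glutamyl and prolyl enzyme, differed by -0.10, Kars1 (lysyl) by -0.067, Lars1 (leucyl) by -0.051, Iars1 (isoleucyl) by -0.027 and Rars1 (arginyl) by -0.011, and their adjusted p lay between 0.391 and 0.950. The values of Iars1 and Rars1 are near 0 and changed sign under some of the other settings tried.

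Outside the complex, Vars1, the valyl enzyme, had -0.031, 0.030, -0.21, -0.15 and -0.21 in Old, against 0.057, 0.11, 0.088, -0.045 and 0.039 in Young. Old replicates 4, 5 and 6 lay below all Young arrays and Old replicates 2 and 3 did not. The difference of -0.16 ± 0.057 (SE) had adjusted p = 0.0886, and without Old replicate 3 it was -0.20 with adjusted p = 0.0341.

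Nars1, which charges asparagine tRNA, had the opposite sign. It had 0.018, -0.018, 0.077, 0.028 and 0.23 in Old, against 0.051, -0.30, -0.10, -0.091 and -0.16 in Young. Young replicate 1 overlapped the Old arrays, and the other 4 Young arrays lay below all of them. The difference was 0.19 ± 0.069 (SE), or 13.9%, with adjusted p = 0.0983. Without Young replicate 1 it was 0.23 with adjusted p = 0.0462.

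Wars1, the tryptophanyl enzyme, and Tars1, the threonyl enzyme, were also higher in mean and not called. Wars1 had -0.0084, 0.040, 0.072, 0.15 and 0.50 in Old, against -0.074, -0.21, -0.033, -0.15 and 0.078 in Young, a difference of 0.23 ± 0.091 (SE) with adjusted p = 0.130. Old replicate 6 was the highest of its values. Tars1 had 0.089, 0.19, 0.040, 0.077 and -0.040 in Old, against 0.044, -0.25, -0.045, -0.042 and -0.056 in Young, a difference of 0.14 ± 0.061 (SE) with adjusted p = 0.165. Yars1 (tyrosyl) differed by 0.057 and Sars1 (seryl) by 0.056.

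Sars1 showed that separated groups need not pass the test. Its Old arrays ranged from 0.00042 to 0.072 and its Young arrays from -0.051 to -0.00042, and its adjusted p was 0.414. The groups of Aars1 (alanyl) were separated too, at -0.10 to -0.0023 in Old and 0.0023 to 0.066 in Young, with a difference of -0.093 and adjusted p = 0.173. Separated groups with Old below were found in 4 cytosolic genes (Qars1, Mars1, Aars1 and Hars1, 21.1%) and 3 mitochondrial genes (Fars2, Hars2 and Iars2, 23.1%), against 4.78% of all genes. In either direction 9.91% of all genes had separated groups. Separated groups with Old above were found in Sars1 (5.26% of the cytosolic genes), against 5.13% of all genes. The rest of the set outside the complex differed by -0.080 for Farsa and -0.021 for Farsb, the subunits of the phenylalanyl enzyme, by -0.056 for Hars1 (histidyl), -0.046 for Gars1 (glycyl) and -0.036 for Cars1 (cysteinyl).

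The synthetases also fall into structural classes with unrelated catalytic domains, class I and class II. The median difference was -0.085 over 16 class I genes, of which 2 fell, and -0.080 over 15 class II genes, of which 1 fell, against 5.09% of all genes. The difference between the classes was not tested. Eprs1 holds a domain of each class and was left out of this count.

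For 11 amino acids the enzymes of both compartments were measured, and in 10 of these pairs the mitochondrial gene had the more negative difference. The widest gaps, mitochondrial minus cytosolic difference, were -0.31 for Nars2 and Nars1, -0.29 for Tars2 and Tars1, -0.26 for Wars2 and Wars1 and -0.25 for Cars2 and Cars1. The gap of the asparagine pair was widened by Nars2 at 0.83 on Young replicate 4. Without that array Nars2 differed by 0.048 and Nars1 by 0.20, a narrower gap of the same sign. The first 3 of these gaps come from pairs whose cytosolic gene had a higher mean in Old. The isoleucine pair differed by -0.21 and the histidine pair by -0.19. The exception was valine, where Vars2 differed by -0.11 and Vars1 by -0.16. The tyrosine pair is among the 10 only through Old replicate 3, without which Yars2 differed by 0.083 and lay above Yars1. The alanine pair is among them only through Young replicate 4, without which Aars2 differed by -0.085 and lay above Aars1. In 6 pairs both genes had a lower mean in Old.

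**Figure D3:**
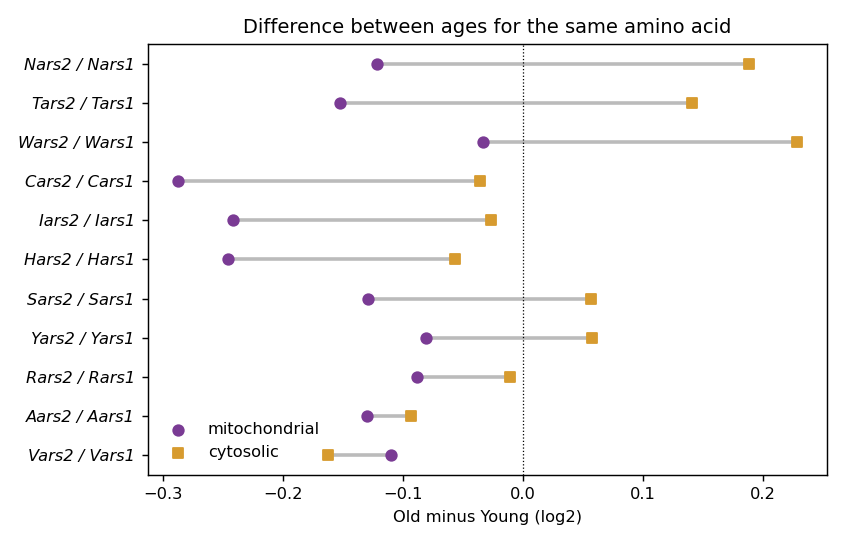
Difference between ages, Old minus Young on the log2 scale, of the mitochondrial (circle) and cytosolic (square) enzyme for each of 11 amino acids, joined by a line. The circle lies left of the square in 10 pairs and right of it for valine.

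The histidine pair is also a pair on the chromosome. In the RefSeq annotation of assembly GRCr8, Hars1 (chr18:28655669-28672712, - strand) and Hars2 (chr18:28672810-28682367, + strand) are transcribed away from each other. Between their annotated records lie 97 bases with a GC content of 55.7%, at chr18:28672713-28672809. They are shown, on the + strand, because both start sites border this short stretch. The difference between the values of these genes was not tested.
Hars1-Hars2 interval: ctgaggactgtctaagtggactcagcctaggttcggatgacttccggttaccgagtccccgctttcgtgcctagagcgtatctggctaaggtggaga
Hars2 fell by 0.25 on the log2 scale. Hars1 differed by -0.056 ± 0.039 (SE) with adjusted p = 0.409, and had -0.078, -0.052, -0.019, -0.0043 and -0.0043 in Old, against -0.00055, 0.0050, 0.049, 0.037 and 0.035 in Young. The array reports transcript levels and not which start sites were used.

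The mean over the members on each array sets the compartments side by side. Averaged over the 13 mitochondrial genes, each relative to its own mean over the 10 arrays, the level was 0.040, -0.25, -0.055, -0.084 and -0.066 on Old replicates 2 to 6, against 0.077, 0.045, 0.085, 0.11 and 0.098 on the Young arrays. Old replicate 2 lay just below the lowest Young array, while the other Old arrays lay further below. Old replicate 3 was the lowest of its age in 8 of the 13 genes, and Old replicate 2 the highest in 7. The cytosolic mean was 0.020, 0.0083, -0.065, -0.039 and 0.019 in Old, against 0.026, -0.025, 0.038, 0.0026 and 0.014 in Young, and the ages overlapped. The mitochondrial minus the cytosolic mean ranged from -0.25 to 0.020 in Old and from 0.047 to 0.10 in Young, without overlap.

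**Figure D4:**
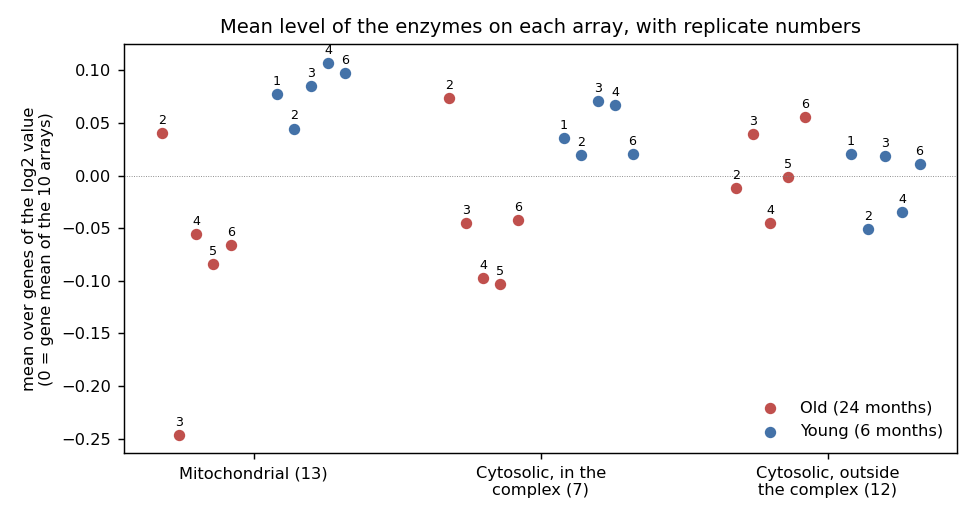
Mean log2 level on each array over the 13 mitochondrial genes, the 7 cytosolic genes of the multi-synthetase complex and the 12 other cytosolic genes, each gene relative to its mean over the 10 arrays. Numbers are replicate numbers. In the mitochondrial group Old replicate 3 lies at -0.25 and Old replicate 2 at 0.040, against 0.045 to 0.11 in Young.

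The arrays also differed in markers of cell types, whose centred values cannot show whether a marker was absent. Of all genes, 6.77% rose, 5.09% fell and 51.8% had a lower mean in Old, and the counts of markers are to be read beside these shares. For the 7 cardiomyocyte markers measured, the mean level of the list ranged from -0.20 to 0.16 in Old and from -0.21 to 0.12 in Young. Myh6 (-1.24) and Ryr2 (-0.55) fell and Nppa (2.69) rose, 3 of the 7, with a median difference of -0.090. Of the 7 markers, 6 had a lower mean in Old. Nppa, which is also on the atrial list, had the opposite sign and the widest difference, so it weighs most in the mean level of the list. All 8 macrophage markers had a higher mean in Old, 3 were called, and their level ranged from -0.078 to 1.00 in Old and from -0.59 to -0.14 in Young. Of 9 lymphocyte markers 2 rose and 4 had a lower mean in Old, with a median difference of 0.024. The list stood at 0.77 on Old replicate 3, but its markers differed there. Gzma was 3.38, Nkg7 1.87 and Ccl5 1.74 on that array, while Cd3e was -0.22, Cd3d -0.072 and Cd79b -0.071. Old replicate 3 was the array lowest in mitochondrial synthetases and also the lowest Old array in cardiomyocyte markers (-0.20). The 7 fibroblast markers ranged from -0.15 to 0.36 in Old and from -0.28 to 0.0083 in Young, and 3 of them rose. Of 5 endothelial markers 2 rose, and of 5 smooth muscle and pericyte markers 1 rose. The 4 atrial markers ranged from 0.19 to 0.86 in Old and from -1.02 to -0.26 in Young, without overlap, and Nppa and Myl7 among them rose. The part of these markers in the synthetase values was not tested. With Old replicates 3 and 6 left out together, 11 of 13 mitochondrial and 12 of 19 cytosolic genes still had a lower mean, and none of the 32 was called.

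Genes that work beside the synthetases were read in the same fit. Of the 3 scaffold proteins of the complex, Eef1e1 rose by 0.27 ± 0.064 (SE, adjusted p = 0.0180), while Aimp2 differed by -0.23 (adjusted p = 0.0718) and Aimp1 by -0.17 (adjusted p = 0.0940). Eef1e1 ranged from -0.020 to 0.28 in Old and from -0.20 to 0.020 in Young. Its sign was thus opposite to that of the 7 enzymes of the complex, and its call was lost without Old replicate 5 or Young replicate 3, at adjusted p of 0.0510 and 0.0502. Aimp1 passed without Old replicate 2 (adjusted p = 0.0130), and Aimp2 without Old replicate 2 or Young replicate 4 (adjusted p of 0.0272 and 0.0421).

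Of 15 measured genes that process or modify mitochondrial tRNAs, or serve the indirect route to glutamine tRNA, 2 fell, 0 rose and 11 had a lower mean, with a median difference of -0.089, where 5.09% of all genes fell and 51.8% had a lower mean. Hsd17b10, a subunit of the mitochondrial RNase P, fell by 0.27 on the log2 scale (SE 0.079, adjusted p = 0.0446). Pus1, which makes pseudouridine in tRNAs, fell by 0.16 (SE 0.047, adjusted p = 0.0491). Both calls were marginal. That of Pus1 was lost without any 1 of 9 arrays (all but Young replicate 4, adjusted p up to 0.115), and that of Hsd17b10 without any 1 of 8 (all but Old replicate 2 and Young replicate 4, up to 0.107).

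Mitochondria have no glutaminyl enzyme of their own in the way the cytosol has Qars1. Ears2 charges the glutamine tRNA with glutamate, and an amidotransferase of Qrsl1, Gatb and Gatc converts it. Qrsl1 differed by -0.23 ± 0.073 (SE) with adjusted p = 0.0609, and its groups did not overlap. Gatc differed by -0.15 (adjusted p = 0.147) and Gatb by 0.095 (adjusted p = 0.371), so the subunits did not share a direction. Qrsl1 passed without Old replicate 2 or 3, at adjusted p of 0.0406 and 0.0440. Of 5 genes for proofreading and recycling of charged tRNAs, 0 passed in either direction, where 11.9% of all genes passed. At an unadjusted p under 0.05, 1 of the 5 was lower, where 1706 of all 14217 genes were lower. The list is short, and its counts were not tested against those of all genes.

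Uncharged tRNA activates the kinase Eif2ak4, and the transcription factor Atf4 then raises genes of amino acid supply, several cytosolic synthetases among them. Of 21 measured genes of this response 5 rose, 1 fell and 17 had a higher mean in Old, with a median difference of 0.12. Of all genes 6.77% rose, 5.09% fell and 6852 of 14217 had a higher mean. Nupr1, a stress-induced chromatin protein, rose by 1.23 ± 0.16, Atf3, a transcription factor, by 0.56 ± 0.087, and Trib3, a pseudokinase that restrains the response, by 0.22 ± 0.049 (SE, adjusted p = 0.00131, 0.00268 and 0.0141). These 3 of the 21 genes had every Old array above every Young array, as did 5.13% of all genes. They passed with any 1 array left out. Aldh18a1, of proline synthesis, rose by 0.41 (adjusted p = 0.0268). Atf4 itself rose by 0.25 (adjusted p = 0.0435), and Vldlr, a lipoprotein receptor, fell by 0.47 on the log2 scale (adjusted p = 0.0423).

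The last 3 calls of that list depend on single arrays, and all 3 were also lost without Old replicates 3 and 6 together (adjusted p between 0.0653 and 0.113). Aldh18a1 was lost without Old replicate 4, 5 or 6 or Young replicate 2, 3 or 4 (adjusted p up to 0.0717). Atf4 was lost without these 6 or without Young replicate 6 (up to 0.0981). Vldlr was lost without Old replicate 5 or 6 or any 1 Young array (up to 0.0977). Among the cytosolic synthetases, 0 of 19 rose.

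Of 10 carriers that bring amino acids into cells, Slc43a2 rose by 0.19 (adjusted p = 0.0315) and Slc38a2, a sodium-coupled carrier of neutral amino acids, fell by 0.51 on the log2 scale (adjusted p = 0.0259), where 6.77% of all genes rose and 5.09% fell. The call of Slc38a2 was lost without both Old replicates 3 and 6 (adjusted p = 0.130), and without Old replicate 5 or 6 or Young replicate 3 or 4 (adjusted p up to 0.0632). Slc43a2 was lost without Old replicate 3, 4 or 5 or Young replicate 1, 2, 4 or 6 (up to 0.0788).

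Wars1 is known as an interferon-induced gene, so the interferon-induced list was read beside it. All 15 measured genes of the list had a higher mean in Old, with a median difference of 0.42, and 5 rose, where 6.77% of all genes rose. Ifi44 rose by 0.38, Oas1a by 0.46, Mx1 by 0.65, Irf7 by 0.47 and Ifit3 by 0.46, with adjusted p between 0.0172 and 0.0458. The level of the list was 0.15, 0.13, 0.00019, 0.20 and 0.52 in Old, against 0.12, -0.47, -0.33, -0.20 and -0.11 in Young, so the ages overlapped. Old replicate 6 was highest and Young replicate 2 lowest in the list and in Wars1, while other arrays differed in order, with the lowest Old array being replicate 4 for the list and replicate 2 for Wars1. The part of the interferon-induced genes in the Wars1 value was not tested. Ifi44 passed with any 1 array left out, and Oas1a, Mx1, Irf7 and Ifit3 were lost without 4, 5, 7 and 7 of the 10 arrays, with Old replicates 5 and 6 and Young replicates 2 and 3 among them for all 4. Without Old replicates 3 and 6 together these 4 were lost too, at adjusted p between 0.101 and 0.112.

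**Figure D5:**
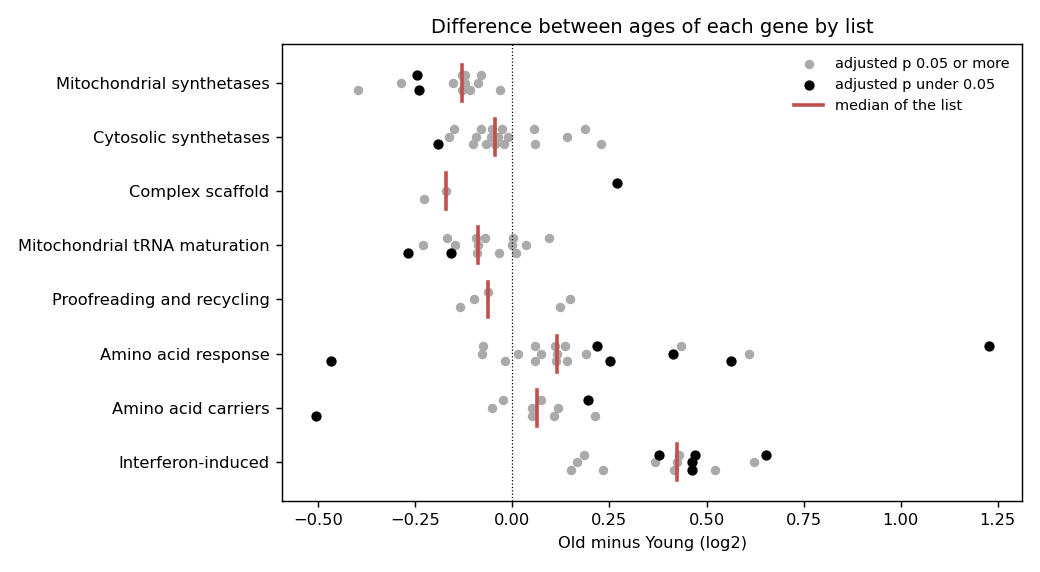
Difference between ages, Old minus Young on the log2 scale, of each measured gene by list, with the list's median as a red bar and genes with adjusted p under 0.05 in black. The medians run from -0.17 for the 3 scaffold genes to 0.42 for the interferon-induced genes, with -0.13 for the mitochondrial and -0.046 for the cytosolic synthetases.

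The promoters were searched for short elements. The letters TGATGNAA (TTNCATCA on the other strand) are the core of the element through which Atf4 acts. They were searched on both strands in RefSeq promoters of assembly GRCr8, from 250 bases before to 50 bases after each start site. They occurred in 7 of 17 cytosolic synthetase promoters (41.2%, with Gars1 and Rars1 not in the table) and in 0 of 18 promoters of the 16 mitochondrial genes. Of all 33469 promoters 3.98% held them, as did 2.24% of the 13242 promoters of genes measured here and 5 of 20 (25.0%) of the amino acid response list. Of 8 matches in the cytosolic set 7 read TGATGCAA, and each of the 7 genes had a match within 50 bases of its start site. One match for each gene is shown in the strand that carries the letters, with the letters in capitals, because they recur across the cytosolic promoters.
Aars1: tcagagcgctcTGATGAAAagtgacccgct
Cars1: tttccagaatcTGATGCAAccgcggcgccg
Iars1: gcgtctggaggTGATGCAAtactgacagtg
Mars1: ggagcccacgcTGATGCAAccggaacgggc
Nars1: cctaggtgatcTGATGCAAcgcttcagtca
Tars1: agctaaccagcTGATGCAAcgggacgccag
Yars1: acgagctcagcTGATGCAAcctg

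These windows lie at chr19:55908480-55908509, - strand, for Aars1, at chr1:208225334-208225363, + strand, for Cars1 and at chr17:15193658-15193687, + strand, for Iars1. Those of Mars1 and Nars1 are at chr7:65023752-65023781, + strand and chr18:60275778-60275807, - strand. Those of Tars1 and Yars1 lie at chr2:62114811-62114840, + strand and chr5:146820190-146820212, + strand. Of the 7 genes with the letters, 4 had a lower and 3 a higher mean in Old, 0 were called, and the median difference was -0.027. The 10 cytosolic genes whose promoter lacked them had a median of -0.062, and 1 of them, Qars1, was called. Of all genes 11.9% were called and 51.8% had a lower mean in Old, and the difference between these groups of genes was not tested. Nars1 and Tars1, with 0.19 and 0.14, are among the genes with the letters, as is Mars1 with -0.15, while Wars1, with 0.23, is among those without. A match is a description of the sequence and not a bound site.

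The letters GCGCANGCG (CGCNTGCGC on the other strand) form the core that nuclear respiratory factor 1 binds, a factor known for nuclear genes of the mitochondrion. They occurred in 4 of 18 mitochondrial promoters (22.2%) and 3 of 17 cytosolic promoters (17.6%, Farsb, Sars1 and Tars1), against 10.7% of the promoters of genes measured here and 5.80% of all promoters. The mitochondrial matches are shown with the letters in capitals, since Iars2, which fell, is among them.
Iars2: gcgaggaactGCGCACGCGctcgggggcg
Vars2: agagtcttctGCGCATGCGtagccccgcc
Wars2: cagaagacaaGCGCATGCGcagtaagcac
Pars2: ggccaaaccgGCGCAGGCGcattggcttc
These windows lie at chr13:99397057-99397085, + strand, chr20:3081838-3081866, + strand, chr2:189150287-189150315, + strand and chr5:126662896-126662924, + strand, in that order. The letters of the window in Wars2 can also be read on the other strand, 1 base further on. Hars2, Fars2 and Cars2 had no match in this window.

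Probe sets were also read on their own. Over the 50 probe sets of the members, 4 passed the test over all 31042 probe sets, where 8.03% passed, and all 4 were lower in Old (both of Hars2 and those of Iars2 and Qars1). A lower mean was found in 15 of 16 mitochondrial and 24 of 34 cytosolic probe sets. Of the 14 genes with several probe sets, 5 had probe sets on both sides of 0, and none differed by more than 0.5. The widest spread was in Eprs1, from -0.33 to 0.064 over 4 probe sets. Wars2 had -0.15 and 0.087, so its mean near 0 averages probe sets of opposite sign. The probe sets of Tars2 gave -0.26 and -0.043, and those of Wars1 0.33 and 0.13.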

How the data were processed

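The 10 Affymetrix rat genome arrays were hybridised with biotin-labelled RNA of hearts after 2 rounds of cDNA synthesis, per the labels' protocols. The deposited table holds log2 values, with the base inferred from their numerical step, and each probe set has a median of 0 over the 10 arrays (tolerance 1e-06). How the authors corrected background, summarized and normalized is not given in the sources used here. Signal over background was not analysed, and the number of arrays limits the precision.

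Of 31042 probe sets, 20826 had 1 gene symbol in the platform annotation, 436 several and 9780 none. Symbols were updated by gene identifier through RefSeq (GRCr8) for 20758. Probe sets of a gene were averaged, which gave 14217 genes. No array matched another (highest correlation 0.597). Old and Young were compared with limma 3.58.1 (lmFit, eBayes) in R 4.3.3, without covariates, and p-values were adjusted by Benjamini-Hochberg over all genes. The fit was tested on simulated data. Python 3.11.15, numpy 2.4.6, pandas 2.3.3 and matplotlib 3.10.9 prepared tables and plots. Promoter sequences came from RefSeq (GRCr8), and not every matching window is reported here.

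The members and lists were chosen with earlier results of these data known. Every array is given for called members and for the 4 of each compartment with the smallest p. Called genes of the partner lists are named, up to 4 each, and cell type markers are given mostly as counts. Atf4, Vldlr, Ifit3, Aimp1, Aimp2, Qrsl1, Gatb, Gatc and members given for their pairs or spread were named after their values were seen. Other settings were array centring, quantile normalization, medians of probe sets, dropping the dimmest inferred class, array weights, a replicate block, leaving out arrays, an exact permutation test and single probe sets.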

Additional observations from a re-analysis of the deposited data

Results flagged for a closer look

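Within an age, 1 array stood apart from the other 4 by Dixon's criterion in 4 of 68 groups examined, where chance alone gives about 1 in 20. Rars1 was 0.32 on Old replicate 2, with the other Old arrays between -0.12 and -0.018. Cars2 was 0.13 on the same array, with the others between -0.37 and -0.25. Iars2, a called gene, was -0.32 on Old replicate 3, with the others between -0.10 and -0.015. Without that array the call of Iars2 held. Nars2 was 0.83 on Young replicate 4, with the other Young arrays between -0.096 and 0.032.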

How the results depend on the processing

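The median differences kept their sign under all settings tried, between -0.17 and -0.11 for the mitochondrial genes and between -0.060 and -0.027 for the cytosolic genes. The counts of calls moved more. Leaving out 1 array gave 988 to 1994 called genes in all, 0 to 2 cytosolic genes lower, 0 to 1 higher, and 1 to 4 mitochondrial genes lower. Array weights gave 3 cytosolic and 4 mitochondrial genes lower (Mars1, Vars1, Cars2 and Fars2 added), with 2239 genes called in all. Quantile normalization and leaving out the dimmest inferred class each added Fars2 (adjusted p = 0.0233 and 0.0494). Pus1 was lost after centring each array, with medians of probe sets and without the dimmest class (adjusted p = 0.0520, 0.0503 and 0.0530), and Ifit3 after quantile normalization (0.0525). Of the 16 called partner genes, Nupr1, Atf3, Trib3 and Ifi44 stayed called without Old replicates 3 and 6 together and the other 12 did not (adjusted p 0.0653 to 0.174). The replicate block ended the calls of Trib3, Atf4, Hsd17b10, Pus1, Vldlr, Slc38a2 and Slc43a2 (0.0753 to 0.224). Without Old replicates 3 and 6, 1012 genes were called, and 0 cytosolic and 0 mitochondrial members. The exact permutation test over all genes could call none, since its smallest two-sided p is 0.00794 and the smallest adjusted p was 0.0801. With the replicate block 1069 genes were called, and 0 cytosolic and 0 mitochondrial members (Hars2 -0.20, adjusted p = 0.0943, Qars1 0.0700, Iars2 0.137). Whether the replicate numbers pair the samples is not settled. Same-numbered arrays correlated at 0.035, 0.048, 0.15 and 0.044, and in 1 of 4 numbers the Old array correlated best with its own number. Weak correlations over 4 numbers cannot exclude a pairing or a shared step of processing. Differences near 0 changed sign. Rars1 was 0.0016 after quantile normalization, 0.012 with the block, 0.023 without Old replicates 3 and 6, and between -0.089 and 0.021 with 1 array left out (0.0088 to 0.021 without Old replicate 3, 4 or 5). Iars1 was 0.020 with the block, 0.00095 without Old replicates 3 and 6 and between -0.080 and 0.010 with 1 array left out (above 0 without Old replicate 5). Without Old replicates 3 and 6, Wars2 was 0.0020 and Yars2 0.062, and Yars2 was 0.083 without Old replicate 3 alone. Nars2 was 0.048 without Young replicate 4. The cause of these changes was not tested.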
